A study of Mus musculus with 2 samples.

Results

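The genes described here are 10 antiviral effectors of the interferon response, chosen by name: Ifit1, Ifit2, Ifit3, Rsad2, Mx1, Mx2, Isg20, Ifi44, Ifi27l2a and Bst2. 8 of the 10 had a probe that could be matched to the gene with the gene table used, and all 8 had a value, from 11 probes, among 22909 genes with a matched probe and 14669 genes with a value in all. The RNA came from whole colon of eight-week-old C57BL/6 mice. Control mice carried Villin-Cre, a transgene that makes Cre recombinase in the intestinal epithelium. EP4 cKO mice (Villin-Cre; EP4flox/flox) carried the same transgene together with floxed alleles of Ptger4, the gene of the prostaglandin receptor EP4, so that deletion was directed to epithelial cells and not to the stroma or the immune cells that whole colon also holds. Each genotype was represented by 1 Agilent single-colour array, for which the labels describe RNA pooled from 3 pools of colon. The methods give n = 3 for each genotype, and how this number relates to the pools and to the 1 array is not settled by these sources. Both arrays lay on the same slide, and the question was which genes differed in the colon without epithelial EP4. With 1 array per genotype there was no replicate check, no test was made, and each error given is the one that the scanner software assigns to a spot.

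Interferons are secreted proteins that warn cells of infection. Type I interferons (alpha and beta) and type III interferons (lambda) bind different receptors but both activate the kinases Jak1 and Tyk2 and assemble the factor ISGF3, to which Stat2 and Irf9 belong and which binds the interferon-stimulated response element upstream of its target genes. Interferon gamma acts mainly through another element, the gamma-activated site. The genes switched on in this way include the effectors studied here, which act on viral RNA, viral membranes or the release of virus, and type III interferons are known for their action on the epithelium of the gut.

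On the array labelled EP4 cKO, 7 of the 8 measured effectors were more than 2-fold higher than on the array labelled Villin-Cre, and none was more than 2-fold lower. Over all genes with a value, 4.86% lay above this 2-fold line and 7.87% below its counterpart on the lower side. The median log2 ratio (EP4 cKO over Villin-Cre) of the 8 effectors was 4.58, beside -0.10 for all genes with a value. This median counts Ifit1, Ifit2 and Ifi44 at a lower bound, and it was 5.54 with the probes' own signals. The latter value places Ifit2 and Ifi44 above Ifit3 by Villin-Cre signals not well above background (26.4 ± 26.4 and 39.1 ± 32.0). Ifit1, Ifit2, Ifit3, Ifi44, Ifi27l2a and Rsad2 were each higher by 15.6-fold or more (with a log2 ratio of at least 2.83 under every setting tried), Bst2 was 3.07-fold higher, and Isg20 lay on the other side of 1. Of the effectors, 5 were well above background on both arrays, and 4 of these were more than 2-fold higher, beside 4.03% of the 12816 genes measured on both, of which 6.23% were lower by as much. The genotype of each array was taken from its label alone. The paper reports EP4 deletion by PCR on isolated colon crypts of EP4 cKO mice, which is not a measure of the RNA on these arrays. The brighter probe of Ptger4, the targeted gene, gave a scaled signal of 6227 in Villin-Cre against 5661 in EP4 cKO, and the dimmer 393 against 592, so that neither was lower by 2-fold. Whether either probe lies in the deleted stretch was not tested.

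The scaled signal is the background-subtracted signal of a probe multiplied by a factor for its array (3.45 in Villin-Cre, 2.68 in EP4 cKO) that brings the trimmed mean of the gene probes to 2500. A probe whose spot the scanner software did not mark as well above background has only an upper bound on that array. Its signal was then held at the higher of its own value and the lowest signal of any probe well above background (125 in Villin-Cre, 57.8 in EP4 cKO), and the fold is written as "at least". Such a bound holds for this scaling only and leaves out the error of the spot. Normexp and quantile normalization gave lower log2 ratios for Ifit1 (4.95), Ifit2 (3.27) and Ifi44 (3.83). Signals of different probes cannot be set against each other, so levels are compared only between the arrays.

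Of the arrays as a whole, 45.4% of 56593 gene probes were well above background in Villin-Cre and 51.6% in EP4 cKO, and no spot was saturated. All 8 epithelial markers (Epcam, Krt8, Krt19, Cdh1, Vil1, Cdx2, Krt20 and Lgals4) were well above background on both arrays, with a scaled signal, summed over all probes of the list, of 2629230 and 3059280, and of these Krt20, a keratin of mature surface cells, was more than 2-fold higher (3.48-fold). The fibroblast markers differed between the arrays in the opposite direction to the effectors: 5 of 6 were more than 2-fold lower in EP4 cKO. Their signal, summed in the same way as for each list, was 14269 in Villin-Cre and 318 in EP4 cKO. Pdgfra was well above background in neither genotype. With 1 array per genotype, whether this came from the genotype or from the tissue taken was not tested. Of the 6 smooth muscle markers, 5 had a value and 1 (Cnn1, 6.62-fold) was more than 2-fold lower, with a sum of 30746 and 45878, of which Acta2 gave 18006 and 27719 by its brightest probe. The part of these differences in the results on the effectors was not tested. In bulk tissue, fewer cells of a type and less RNA per cell cannot be told apart.

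The IFIT proteins carry tetratricopeptide repeats and bind viral or otherwise foreign RNA. Ifit1 recognises RNA whose cap lacks a methyl mark that host messenger RNA bears. Its probe gave a scaled signal of 139 ± 33.1 in Villin-Cre, where it was not well above background, and 9346 ± 935 in EP4 cKO. Ifit1 was thus at least 67.3-fold higher (log2 ratio at least 6.07). This bound uses the Villin-Cre signal itself, which lay above the floor, and does not count its error of 33.1. Before scaling, the spot read 66 against a local background of 29 on the Villin-Cre array and 3255 against 29 on the EP4 cKO array.

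Ifit2, which binds RNA rich in adenine and uracil, gave 26.4 ± 26.4 in Villin-Cre, not well above background, and 2196 ± 220 in EP4 cKO. Ifit2 was at least 17.5-fold higher (log2 ratio at least 4.13). The bound is set by the floor of 125 and not by the probe. The probe's own signals had a log2 ratio of 6.38 ± 1.45, which rests on a Villin-Cre signal no larger than its error. Ifit3 forms complexes with other IFIT proteins, and among the 3 Ifit effectors it had the only probe that was well above background on both arrays. It gave 177 ± 32.7 and 8279 ± 828, a 46.9-fold difference with a log2 ratio of 5.55 ± 0.30 (rank 26 from the highest of the 14669 genes, with bounds ranked at their bound). In each of the 3 genes the control value sat near the limit of detection and the EP4 cKO value far above it.

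Rsad2 encodes viperin, an enzyme that makes a nucleotide which stops viral RNA synthesis. Its brighter probe gave 201 ± 34.9 in Villin-Cre and 3137 ± 314 in EP4 cKO, a 15.6-fold difference (log2 ratio 3.97 ± 0.29, rank 57). A second Rsad2 probe gave 29.9 in Villin-Cre, not well above background, and 404 in EP4 cKO, at least 3.22-fold higher. Both probes thus lay on the same side, with the dimmer giving only a bound.

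Ifi44 is an interferon-induced cytoplasmic protein. Its signal was 39.1 ± 32.0 in Villin-Cre, not well above background, and 4114 ± 412 in EP4 cKO, at least 32.8-fold higher (log2 ratio at least 5.04). Ifi27l2a belongs to a family of small interferon-inducible membrane proteins and stood well above background on both arrays, with 1106 ± 114 and 51045 ± 5104. The difference was 46.2-fold, a log2 ratio of 5.53 ± 0.21 (rank 29). A further Ifi27l2a probe, designed to another transcript, did not rise well above background in either genotype (27.7 and 19.7), so no fold can be given for it.

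Bst2, or tetherin, holds budding virus particles at the cell surface. It was well above background on both arrays, with 3074 ± 309 in Villin-Cre and 9448 ± 945 in EP4 cKO. This 3.07-fold difference (log2 ratio 1.62 ± 0.20, rank 310) was the smallest of the 7 effectors past 2-fold. Isg20, an exonuclease that degrades RNA, was the exception to the direction of the others. Its brighter probe gave 11270 ± 1127 in Villin-Cre and 6409 ± 641 in EP4 cKO, 1.76-fold lower (log2 ratio -0.81, rank 13010), and its dimmer probe gave 3206 and 1734, 1.85-fold lower. Both probes stayed short of 2-fold, and when the arrays were scaled to their E1A control spots the log2 ratio of Isg20 turned to 0.36. Past 1.5-fold Isg20 counted as the only effector lower, as did 18.6% of all genes with a value.

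**Figure D1:**
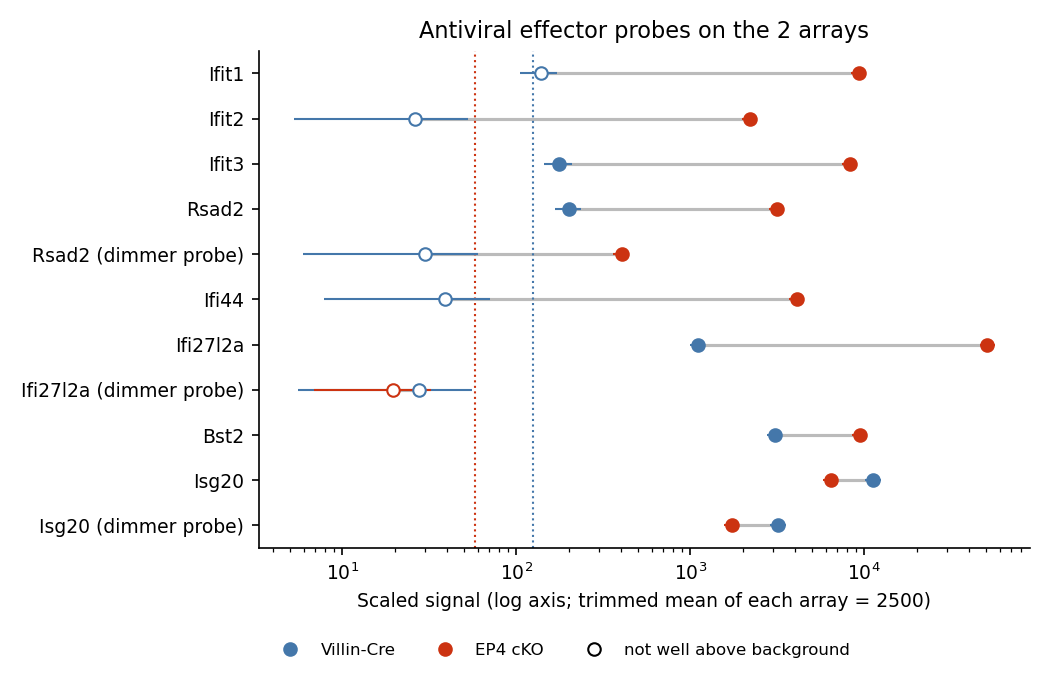
Scaled signal (log axis) of the 11 probes of the 8 measured antiviral effectors on the Villin-Cre array (blue) and the EP4 cKO array (red). Bars are the error from the scanner software, drawn shorter on the left where they would reach 0, hollow points were not well above background, and dotted lines are the floor of each array (125 and 57.8). Among probes well above background on either array, only those of Isg20 have the Villin-Cre point to the right.

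The share of genes past 2-fold differed with signal on these arrays, so each effector measured on both arrays was also placed among the genes of the same decile by mean signal (1467 genes each). Ifit3 ranked 5 from the highest in its decile, where 4.50% of genes were more than 2-fold higher. Ifi27l2a ranked 2 in a decile with 3.82%, Rsad2 ranked 14 in a decile with 4.91%, and Bst2 ranked 27 in a decile with 3.68%. Isg20 ranked 1398 of the 1467 in its decile, the same as that of Ifi27l2a. Ifit1, Ifit2 and Ifi44, whose ratios are bounds, are given no rank, and in their deciles 4.50%, 8.79% and 8.25% were more than 2-fold higher. These ranks describe where the effectors stood and are not a test.

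**Figure D2:**
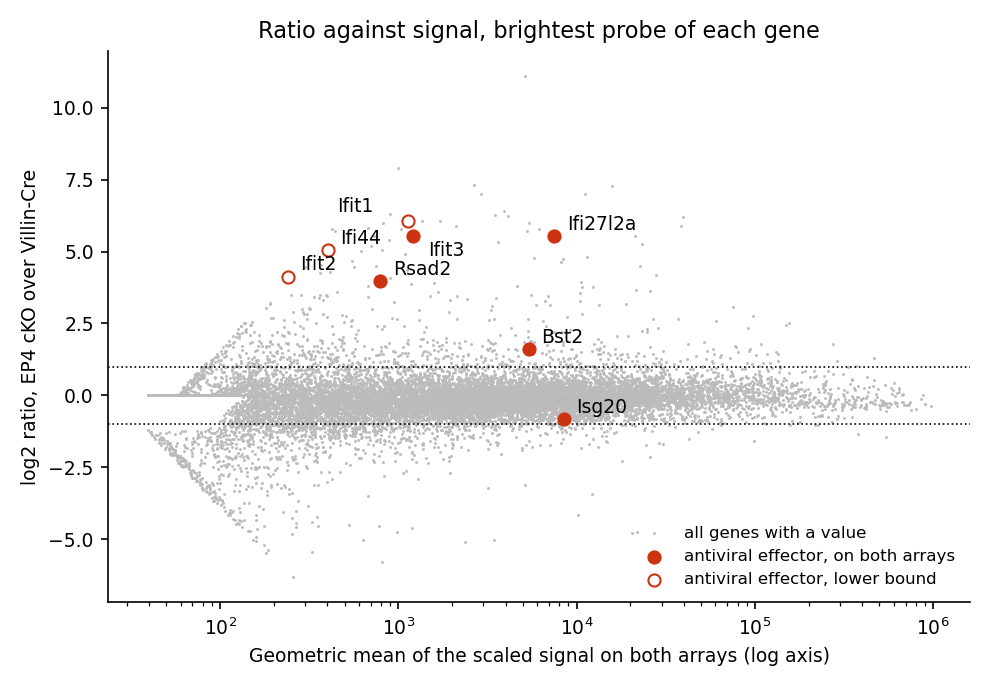
log2 ratio (EP4 cKO over Villin-Cre) against the geometric mean of the scaled signal (log axis) for the brightest probe of each of the 14669 genes, with the effectors in red (hollow where the ratio is a bound). Dotted lines mark 2-fold, and the flat and slanted streaks on the left are genes with a signal held at a floor. 7 effectors lie above the upper line and Isg20 lies at -0.81.

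The effectors were also read under other ways of processing, and no order is given for Ifit1, Ifit2 and Ifi44, since their ratios are bounds. Over the 7 effectors past 2-fold, 60 of 60 log2 ratios computed under other settings stayed more than 2-fold higher. Scaling to the 75th percentile, to all spots or to the E1A control spots raised every ratio, so those values could not have failed. Ratios below the main ones came only with normexp and quantile normalization (all but Bst2) and, for Rsad2, with the mean of all probes. All 7 effectors were also past 3-fold, beside 2.21% of all genes (3.63% were lower by as much). The count past 1.5-fold was again 7, beside 9.84%. The lowest and highest log2 ratio were 4.95 and 7.25 for Ifit1, 3.27 and 6.38 for Ifit2, 4.56 and 6.73 for Ifit3, and 2.83 and 5.14 for Rsad2. For Ifi44 they were 3.83 and 6.72, for Ifi27l2a 5.29 and 6.70, for Bst2 1.62 and 2.80, and for Isg20 -0.85 and 0.36. The highest values of Ifit2 and Ifi44 use Villin-Cre signals not well above background and carry errors of 1.45 and 1.19. Scaling to the E1A control spots moved the median of all probes on both arrays by 1.18, and the other scalings by 0.13 to 0.18. Relative to the median of each setting, the log2 ratio of Bst2 lay between 1.69 and 1.81 and that of Isg20 between -0.75 and -0.62. For scalings that move all genes alike, these values equal the main ones by construction.

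**Figure D3:**
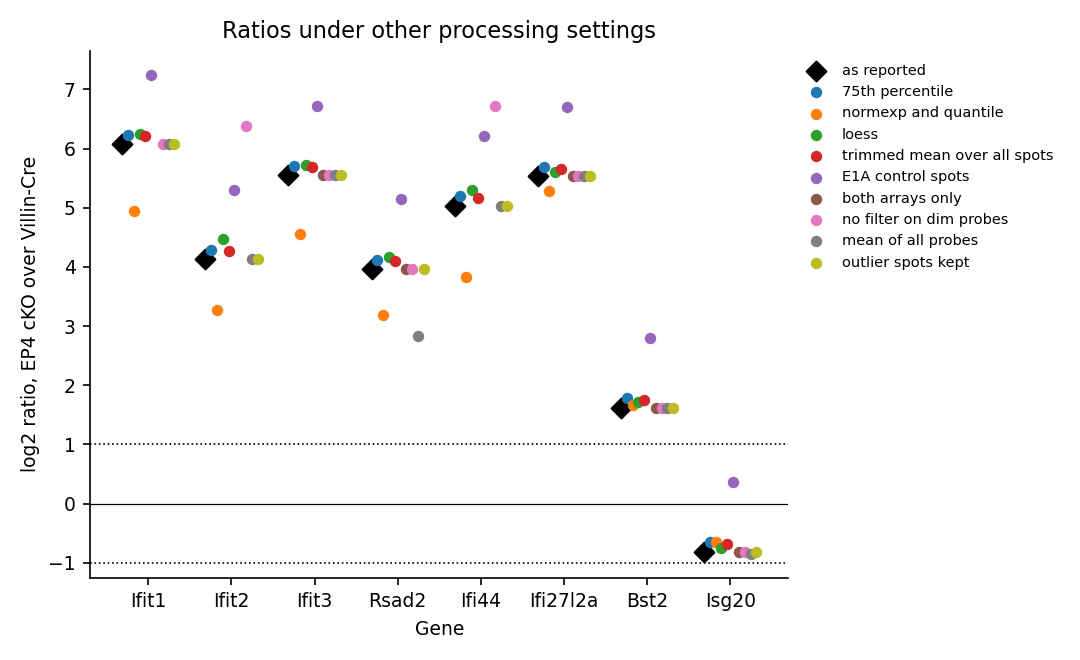
log2 ratio (EP4 cKO over Villin-Cre) of the 8 effectors as reported (black diamonds) and under 9 other settings (coloured points), with dotted lines at 2-fold. 7 effectors stay above the upper line throughout, from 1.62 for Bst2 upwards, and Isg20 crosses 0 only with the E1A control spots (0.36).

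Mx1 and Mx2 are large GTPases related to the dynamins that block viruses in the nucleus and the cytoplasm, and many inbred mouse strains, C57BL/6 among them, carry defective copies. The RefSeq gene table of GRCm38.p6 lists both as transcribed pseudogenes on chromosome 16. That table gives them only under non-coding accessions, which no probe carries, so no probe could be matched and neither gene has a value here. The gap lies in the table used for the names and does not mean that the arrays have no probe for them. Their measured neighbours on the chromosome stayed within 2-fold: Bace2 had a log2 ratio of -0.46, Fam3b of 0.55 and Tmprss2 of 0.22. The related dynamin Dnm1 gave 3745 and 12493 (log2 ratio 1.74) by its brightest probe, but a log2 ratio of 0.86 as the mean of its probes, and Dnm2 had 0.02 and Dnm1l 0.13.

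The Ifit genes lie side by side on chromosome 19, and the cluster did not move as a whole. Going along it, Lipa, a lipase gene before Ifit2, had signals of 1449 and 1734 (log2 ratio 0.26), followed by Ifit2, Ifit3 and then Ifit1bl1, which gave 3052 and 35564 (3.54). Ifit3b, a close copy of Ifit3, gave 139 and 4671 (5.07). Ifit1bl2, the direct neighbour of Ifit1, gave 1455 and 2135 (0.55), and Slc16a12, a transporter gene on its other side, 903 and 1061 (0.23). Probes for close copies can bind each other's transcripts, so the values of Ifit3 and Ifit3b, and of Ifit1 and its relatives, are uncertain as values of single genes.

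Elsewhere the neighbours of an effector were mostly near 1. Rsad2 was the exception: Cmpk2, a nucleotide kinase gene induced by interferon that stands next to it, gave 455 and 5025 (log2 ratio 3.46), whereas Id2, the nearest measured gene on the other side, had 0.38. Ifi44 lay between Adgrl2 and Gipc2 (0.07 for both), and Bst2 between Plvap (-0.33) and Mvb12a (-0.16). Ifi27l2a lay between Ddx24 (-0.07) and its relative Ifi27, which gave 33047 and 47595 (0.53). Ifi27l2b, another close copy, gave 39565 and 106053 (1.42). Isg20 lay between its relative Aen (0.20) and Hapln3 (-0.62), and another relative, Isg20l2, had 0.12. Over all 12 relatives of the effectors, 10 had a value, 4 were more than 2-fold higher (Ifit3b, Ifit1bl1, Dnm1 and Ifi27l2b), none was more than 2-fold lower, and the median was 0.54, while Ifi44l and Dnm3 were well above background in neither genotype. With the E1A control spots, all 10 relatives were past 2-fold, as the median of all probes then moved by 1.18.

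The sequences before the start sites of the effectors were searched for the core of the interferon-stimulated response element (GAAA, any 2 bases, and GAAA again) on both strands, and for the gamma-activated site, TTCNNNGAA, which reads the same on both. RefSeq (GRCm38.p6) windows of 250 bases before to 50 after the start were at hand for 7 of the 10 effectors, and Ifi27l2a, Mx1 and Mx2 had none. The core was present in 4 of the 7, beside 3.99% of 27025 genes with a window (3.44% of 32851 windows), and the gamma-activated site in 3 of the 7, beside 9.55% of genes (8.30% of windows). The 160 bases before the start of these effectors are shown because they carry the matches, written 5′ to 3′ on the strand of the gene, with the matches to the core in capitals. They are chr19:34640729-34640888 (+) for Ifit1, chr19:34583369-34583528 (+) for Ifit3, chr12:26456453-26456612 (-) for Rsad2 and chr8:71537473-71537632 (-) for Bst2, and chr3:151749911-151750070 (-) for Ifi44, an effector with a large ratio and no match.
Ifit1: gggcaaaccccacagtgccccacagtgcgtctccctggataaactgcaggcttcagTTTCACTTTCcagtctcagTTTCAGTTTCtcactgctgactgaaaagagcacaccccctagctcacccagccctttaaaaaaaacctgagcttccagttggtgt
Ifit3: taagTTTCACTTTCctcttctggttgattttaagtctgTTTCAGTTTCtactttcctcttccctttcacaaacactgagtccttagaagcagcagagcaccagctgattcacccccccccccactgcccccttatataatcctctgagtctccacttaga
Rsad2: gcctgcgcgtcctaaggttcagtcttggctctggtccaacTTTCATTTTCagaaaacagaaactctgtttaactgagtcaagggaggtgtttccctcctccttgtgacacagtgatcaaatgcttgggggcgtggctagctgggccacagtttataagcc
Bst2: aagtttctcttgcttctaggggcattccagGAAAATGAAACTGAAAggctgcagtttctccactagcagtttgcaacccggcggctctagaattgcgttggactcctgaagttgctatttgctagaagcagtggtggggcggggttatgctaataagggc
Ifi44: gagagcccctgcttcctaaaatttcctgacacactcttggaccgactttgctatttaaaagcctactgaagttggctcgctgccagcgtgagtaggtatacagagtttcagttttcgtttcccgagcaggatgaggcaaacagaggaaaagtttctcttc

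Counted from the start site, the matches to the core began at -104 and -85 in Ifit1, at -156 and -122 in Ifit3, at -120 in Rsad2, and at -130 and -124 in Bst2, where they overlap each other. Ifit1 and Ifit3 thus held a pair of separate matches, Rsad2 a single match, and Bst2 a fused pair. A match to the gamma-activated site began at -136 in Bst2, overlapping the core there, at -241 in Ifit2 and at -73 in Isg20. Neither the start sites of Ifit2 and Isg20 nor that of Ifi44 held the core in their windows, which says only that these letters are not there. A match is a description of the sequence and not a measured binding site.

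The matches of Ifit1 are shared with its neighbour. Ifit1bl2 is read from the opposite strand, and the window before one of its start sites overlaps that of Ifit1, so that both matches, at chr19:34640785-34640794 and chr19:34640804-34640813, stand at -51 and -70 from the start of Ifit1bl2. These matches thus lay within reach of both starts in this annotation, beside a ratio of at least 67.3-fold for Ifit1 and of 1.47-fold for Ifit1bl2. Ifit3 and Ifit3b each held a pair of matches 34 bases apart and had log2 ratios of 5.55 and 5.07. Over all genes with a value and a window, 434 held the core, of which 15.0% were more than 2-fold higher, with a median log2 ratio of 0.00, and 11253 did not, of which 4.29% were, with a median of -0.10. For the gamma-activated site the shares were 5.30% of 1000 genes with it and 4.63% of 10687 without.

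**Figure D4:**
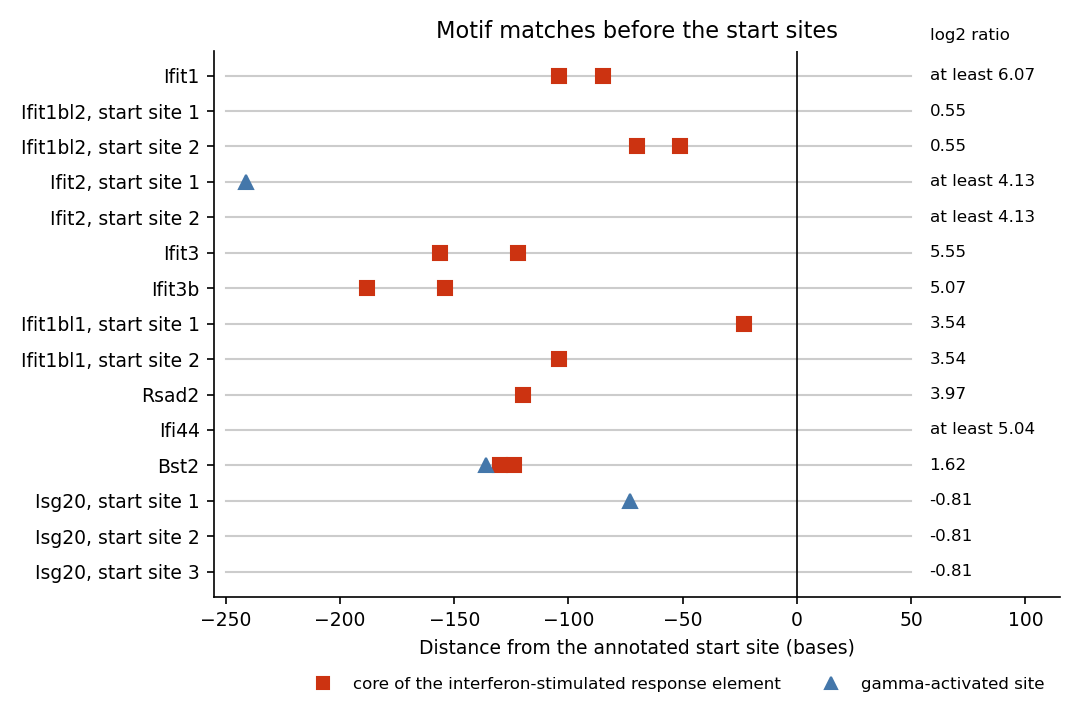
Position of matches to the core of the interferon-stimulated response element (red squares) and to the gamma-activated site (blue triangles) from 250 bases before to 50 bases after each annotated start site (distance in bases), for the effectors and their relatives in the Ifit cluster, with the log2 ratio (EP4 cKO over Villin-Cre) of the gene on the right. Ifit1bl2 shares the matches of Ifit1 and has a ratio of 0.55, and Ifi44 has no match and a ratio of at least 5.04.

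The genes that act before and beside the effectors were read in the same way, from lists that did not include them. Of 8 genes of the receptors, their kinases and ISGF3, 2 were more than 2-fold higher, none was lower, and the median log2 ratio was 0.31. The 2 belong to ISGF3: Stat2 gave 2877 and 10562 (1.88) and Irf9 4563 and 15348 (1.75), although the log2 ratio of Stat2 was 0.94 as the mean of its probes. The receptor chains and kinases stayed within 2-fold, with Ifnar1 at -0.55, Ifnar2 at -0.02, Ifnlr1 at 0.45, Il10rb at 0.46, Jak1 at 0.17 and Tyk2 at -0.31. With the E1A control spots, 6 of the 8 were past 2-fold, but the median log2 ratio of all probes on both arrays was then itself 0.99.

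Of 8 regulators of the pathway, 5 were higher by more than 2-fold, none was lower, and the median was 1.52. Usp18, which removes Isg15 from proteins and dampens receptor signalling, gave 136 in Villin-Cre, not well above background, and 5807 in EP4 cKO (log2 ratio at least 5.42). Irf7, the factor that drives interferon alpha genes, gave 37247 and 252885 (2.76). The feedback inhibitors Socs1 and Socs3 had log2 ratios of 2.32 and 1.69, and Irf1 had 1.36. Irf2, Irf3 and Ptpn6 had 0.14, -0.35 and -0.15.

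Of 19 interferon genes listed, 16 had a probe, 12 were well above background on at least 1 array and so had a value, and 6 were so on both arrays. The median log2 ratio over these 6 was -0.08. Ifnl3, a type III interferon, was the only interferon gene more than 2-fold higher, with signals of 281 and 710 (1.34), and it stayed past 2-fold under each of the other settings (1.12 to 2.51). Ifnb1, the gene of interferon beta, gave 181 in Villin-Cre and fell below the floor of 57.8 in EP4 cKO, and was at least 3.14-fold lower, but it was within 2-fold with normexp and quantile normalization (log2 ratio -0.58), with loess (-0.75) and with the E1A control spots (-0.47). Ifng, the gene of interferon gamma, gave 149 and 177 (0.25). Of the other 9 interferon genes with a value, the 4 measured on both arrays stayed within 2-fold. The other 5 (Ifna2, Ifna9, Ifna11, Ifna13 and Ifnk) were well above background in EP4 cKO alone, so that only a bound, itself under 2-fold, can be given. This does not mean a higher signal there, since the floor was 125 in Villin-Cre and 57.8 in EP4 cKO. The probes' own signals were lower in EP4 cKO for Ifna2 (113 and 93.4) and Ifna13 (114 and 101). They were higher for Ifna9, Ifna11 and Ifnk. With loess 2 of the 12 were more than 2-fold higher. With the E1A control spots 5 were, but the median log2 ratio of all probes on both arrays was then itself 0.99. Interferon protein was not measured.

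Other antiviral genes were mostly higher as well. Of 30 other antiviral effectors with a value, 18 were higher by more than 2-fold, 2 were lower, and the median log2 ratio was 1.26. The largest of those measured on both arrays were the RNA helicase gene Ddx60 (4.51), the nucleic acid sensor gene Zbp1 (3.95), Rtp4 (3.76), Xaf1 (3.47) and Cmpk2 (3.46), although Xaf1 had 1.73 as the mean of its probes. The 2 on the other side were the complement inhibitor gene Serping1 (-2.13) and Tent5c (-1.30), both within 2-fold with the E1A control spots (-0.96 and -0.12). With that scaling 28 of the 30 were higher, but the median log2 ratio of all probes on both arrays was itself 0.99. Among the oligoadenylate synthetases and RNase L, 8 of 11 were higher, with Oas2 (6.07), Oasl2 (4.63) and Oasl1 (3.19) the largest of those on both arrays, and 1, Oas1d (-1.05), was lower, with a median of 1.71. Oas1d stayed past 2-fold in 5 of 10 settings, and in none of the other scalings. The guanylate-binding proteins (7 of 8, median 2.59) and the genes of Isg15 conjugation (5 of 6, median 1.85) had none lower. The lists overlap: of the genes of Isg15 conjugation, Herc6 and Trim25 also count among the other antiviral effectors and Usp18 among the regulators. Several of these ratios are bounds. Over genes well above background in both genotypes, the guanylate-binding proteins had 3 of 4 higher with a median of 4.27, beside 3.97 for the effectors. The genes of Isg15 conjugation then had 3 of 4 higher with a median of 1.70. For the other antiviral effectors it was 15 of 27 (2 lower, median 1.04), and for the oligoadenylate synthetases and RNase L 7 of 9 (1 lower, median 1.71). The 8 reference genes had none past 2-fold and a median of 0.20, but 6 were higher with the E1A control spots (median 1.37) and 1 with the 75th percentile or the trimmed mean over all spots. No difference between these lists was tested.

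**Figure D5:**
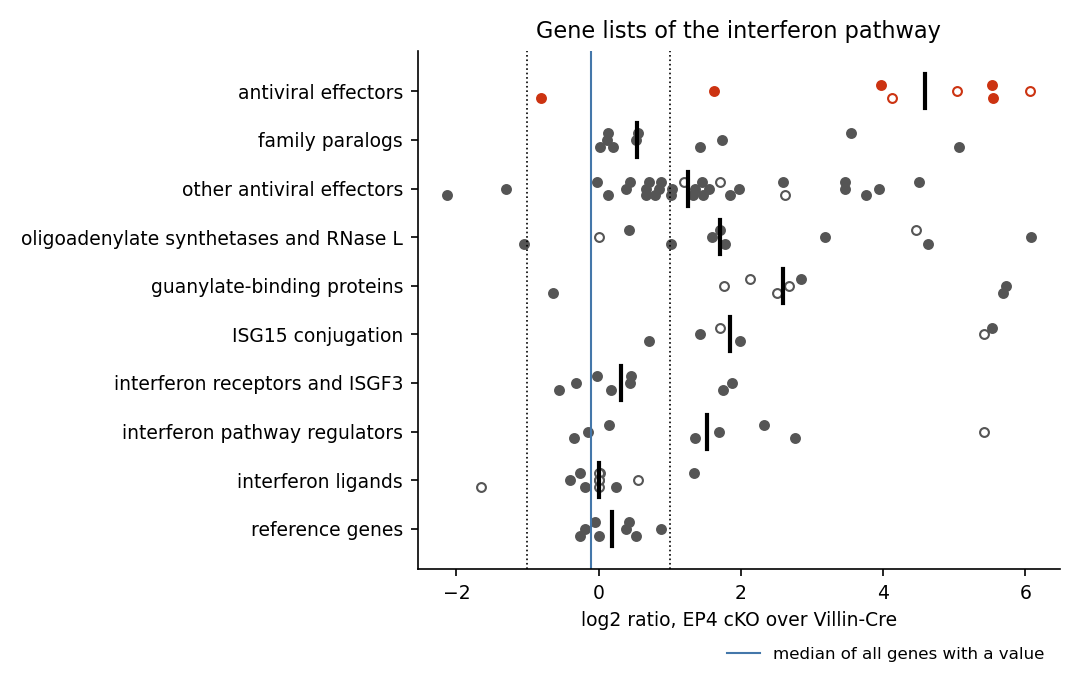
log2 ratio (EP4 cKO over Villin-Cre) of the genes with a value in each list, with the antiviral effectors in red, a black bar at the median of each list, hollow points where the ratio is a bound, dotted lines at 2-fold and a blue line at the median of all genes (-0.10). The median is 4.58 for the effectors, 2.59 for the guanylate-binding proteins, and 0.20 for the reference genes, and the points of the interferon ligands at 0 are bounds set to that value.

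Immune cells also make these effectors, so their markers are given beside them. Of the macrophage markers, 7 of 9 had a value and none was past 2-fold, with a summed signal of 23139 and 33669 in which Cd14 gave 8483 and 15583 by its brightest probe, while Csf1r had a log2 ratio of -0.79 and Mertk of -0.55, and the defining markers Adgre1 and Fcgr1 were well above background in neither genotype. Of 7 markers of plasmacytoid dendritic cells, which make much interferon alpha, 1 was more than 2-fold higher (Ly6d) and 1 lower (Cox6a2). With normexp and quantile normalization 1 was higher and none lower, and with the E1A control spots 4 were higher and none lower. The summed signal of 491079 and 349176 rests mostly on Siglech (238790 and 213032) and Klk1 (242632 and 126472). Whether these signals come from such cells was not tested, so the lower sum is not a measure of their number. Of 8 T cell markers, 1 was higher (Cd3g, 2.42-fold) and none lower, with a summed signal of 14492 and 15530. With loess 3 of the 8 T cell markers were higher, with the 75th percentile or all spots 2, and with normexp and quantile normalization none. With the E1A control spots 7 of them and 5 of the 7 macrophage markers with a value were higher. The median log2 ratio of all probes on both arrays was then itself 0.99, close to the 2-fold line. Counts with the E1A control spots thus cannot be read as a change in these cells. Of 6 neutrophil markers, 4 had a value and 2 (S100a8 and S100a9) were higher, and the sum of 106881 and 82787 is nearly all Csf3r (106452 and 81629). Of 6 markers of B and plasma cells 3 had a value, of 4 endothelial markers 1 had, and none of these was past 2-fold. The part of any of these cells in the effector values was not tested.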

How the data were processed

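Whole colon RNA of Villin-Cre and EP4 cKO mice was measured on 1 array per genotype, grouped by the genotype in the labels. The authors deposited scanner intensities, per the file headers from Feature Extraction 12.0.3.1 (11.5.1.1 in the submitters' processing notes), background-subtracted and detrended but not scaled between arrays; the processed signal intensity and the software's flags were used, and 0 columns belonged to other samples. Control spots and outlier spots (147 for Villin-Cre, 126 for EP4 cKO) were left out, spots of a probe were averaged, and each array was scaled to a mean of 2500 after trimming 2% at each end, as the methods describe. Bounds not above 1 were set to a log2 ratio of 0. The brightest probe, by the geometric mean of both arrays, stands for its gene, named by matching RefSeq accessions to a gene table of GRCm38.p6 (58.3% of probes). The grid refers to an older assembly, so no probe position is given. Over 278 probes with 8 or more usable spots, the median SD of the log2 ratio between spots was 0.035, which does not cover mice. The number of arrays limits the precision.

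The members and lists were chosen with earlier results of these data known. Genes named are all members, Ptger4, the nearest measured neighbours, the markers and any gene of a list of 12 or fewer. In longer lists, up to 5 genes with the largest ratios in size on both arrays are named. Ifnb1, Oas1d, Serping1 and Tent5c were picked after their values were seen. Ifna2, Ifna9, Ifna11, Ifna13 and Ifnk, the interferon genes well above background in EP4 cKO alone, are named outside this rule. Alternatives were scaling to the 75th percentile, to all spots or to E1A spots, loess (span 0.3), limma normexp (offset 50) with quantile normalization, other filters on dim probes, the mean of all probes, outlier spots kept, and thresholds of 3-fold and 1.5-fold. Normexp was run on the median signal. A comparison of protein sequences was planned and not made. The values of some genes are not reported here. The steps were tested on simulated data. Python 3.11.15, numpy 2.4.6, pandas 2.3.3, statsmodels 0.14.6, matplotlib 3.10.9, R 4.3.3 and limma 3.58.1 were used.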

Additional observations from a re-analysis of the deposited data

How the results depend on the processing

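The count of 7 effectors more than 2-fold higher was the same with every other scaling, with thresholds of 3-fold and 1.5-fold, with the mean of all probes, without a filter on dim probes and with outlier spots kept; it was 4 of 5 where a gene had to be well above background in both genotypes, because 3 of the effectors then had no value. The median log2 ratio of 4.58 became 3.55 with normexp and quantile normalization, 4.89 with loess and 5.76 with scaling to the E1A control spots. It was 3.97 over genes on both arrays. Without a filter on dim probes it was 5.54, which uses Villin-Cre signals not well above background. The cause of the shift under normexp was not tested. The log2 ratio of Isg20 reversed, to 0.36, with the E1A control spots, a setting that moved the median of all probes by 1.18. That scaling moves all genes alike, so the value relative to the median (-0.63) equals the main one by construction and is no separate check. At the 1.5-fold threshold Isg20 counted as 1 effector lower. Signal over background limits Ifit1, Ifit2 and Ifi44, for which only a bound on the fold can be given. No paired analysis was possible because each genotype has 1 array, and for the same reason no sample could be left out.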
